A study of Mus musculus with 2 samples.

Results

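The replication-dependent histone genes of the mouse were described in single-cell RNA libraries of bone marrow. The 67 members were chosen by symbol alone, as every gene whose name starts with Hist1h, Hist2h, Hist3h or Hist4h, out of 31053 genes in the deposited matrices. They comprise 6 genes for the linker histone H1 and, for the core histones, 18 for H2A, 18 for H2B, 12 for H3 and 13 for H4. In the annotation 54 of them lie on chromosome 13, 10 on chromosome 3, 2 on chromosome 11 and 1 on chromosome 6.

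Marrow was taken from aged C57BL/6J mice that had been given a fecal microbiota transplant (FMT). In the FMT_young group the gut microbiota came from young donors and in the FMT_aged group from aged donors. Both groups therefore share the strain, the aged recipients and the transplant itself. The labels give neither the age or number of animals in a library nor the time after transplant. Flow-sorted whole marrow, lineage-negative cells and lineage-negative cKit+ progenitors were mixed in parts of 1, 1 and 4 before library preparation with the 10x Genomics 3' kit, so shares of cell types are set by the sort. Each group is 1 library. No difference between the groups can be tested against a spread of animals, no p-value is given, and the intervals below are 95% intervals that cover counting error only.

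Histones package DNA into nucleosomes, in which DNA is wrapped around pairs of H2A, H2B, H3 and H4, and H1 binds the linker DNA between them. Most cells make these proteins in bulk in S phase, when new DNA needs new nucleosomes, and the members' mRNAs end in a conserved stem-loop bound by the protein SLBP instead of a poly(A) tail. Some members also give longer, polyadenylated forms, which are known from cells that have left the cycle, and the 3' kit primes on poly(A).

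The stem-loop is the sequence the family is defined by, and a search of the annotated transcripts found it in 44 of the 67 members, in the 6 forms below with the loop in capitals.
26 members of the H1, H2A, H2B and H3 types: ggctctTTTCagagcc
7 members, all H4: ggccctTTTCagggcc
6 members: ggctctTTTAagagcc
2 members (Hist2h4, Hist1h4i): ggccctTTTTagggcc
2 members (Hist1h4j, Hist1h4b): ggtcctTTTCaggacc
Hist2h2ac: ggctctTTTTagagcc
In 22 members the annotated transcript ends less than 100 bases after the stem-loop, in 22 it runs 100 bases or more past it, and in 23 the model holds no stem-loop. Many of these 23 models stop at or near the stop codon, with 0 bases after it in Hist1h1b, Hist1h2an and Hist1h2bl, for example. The search looked only after the stop codon, so it could not find a stem-loop there, and these genes may still have one. Hist1h2ap (H2A, chromosome 13, 21833026 to 21833507, minus strand, GRCm38) ends 3 bases after it, whereas Hist1h1c (H1, chromosome 13, 23738808 to 23740367, plus strand) continues for 840 bases and Hist1h2ac (H2A, chromosome 13, 23681467 to 23683948, minus strand) for 2010 bases.

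The members are also near copies of each other. Of the 67, 56 share an identical run of at least 100 bases with another member of the same histone type, with a median longest run of 233 bases over the family. Hist1h2ap shares 452 bases, 93.78% of its annotated transcript, with Hist1h2ao. The submitters' counting could split or drop reads among such copies, so the level of a single H2A, H2B, H3 or H4 gene is uncertain. The longest runs shared by H1 genes are shorter than that median, with 47 bases for Hist1h1b and 149 for Hist1h1c. Hist1h1c, Hist1h1d (149) and Hist1h1e (146) still pass 100 bases, so the uncertainty holds for them too. Some core histone genes share less, such as Hist4h4 with 32 bases.

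Promoters differ by type. The 130 bases before the RefSeq start (GRCm38.p6) are printed for 3 members that differ below in their relation to S phase, with capitals marking 4 motifs searched on both strands. These are the TATA box (TATAAA), the CCAAT box (also read as ATTGG), the octamer (ATTTGCAT, also read as ATGCAAAT) and the H1 box (AAACACA).
Hist1h1b, chr13:21780626-21780755, minus strand: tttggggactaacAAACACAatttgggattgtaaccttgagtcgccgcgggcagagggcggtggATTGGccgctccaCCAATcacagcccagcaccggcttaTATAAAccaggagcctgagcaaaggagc
Hist1h2ac, chr13:23683960-23684089, minus strand: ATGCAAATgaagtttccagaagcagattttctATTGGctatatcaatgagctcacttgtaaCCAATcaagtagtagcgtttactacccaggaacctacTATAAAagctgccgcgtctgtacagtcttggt
Hist1h1c, chr13:23738677-23738806, plus strand: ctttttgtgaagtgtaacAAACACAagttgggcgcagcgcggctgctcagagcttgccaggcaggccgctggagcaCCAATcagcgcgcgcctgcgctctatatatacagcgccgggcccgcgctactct
RefSeq windows from 250 bases before to 50 after the start matched 62 of the 67 members. The CCAAT box stood in 85.48% of them against 37.92% of all 27025 promoters of that length, in every matched H1, H2A, H2B and H3 promoter and in 3 of 12 H4 promoters. The TATA box stood in 56.45% against 14.16%. The octamer stood in 20.97% against 1.754%, in 7 H2A and 6 H2B genes and no other type. The H1 box stood in 14.52% against 7.138%, in 5 of 6 H1 genes. These matches describe letters in a window and show no binding.

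After filtering, 10793 FMT_young and 10320 FMT_aged cells remained, with median depths of 10775 and 11176 UMIs (unique molecular identifiers, each counting 1 captured mRNA). The 67 members took 239830 and 224466 UMIs, or 1548.6 (1542.4 to 1554.8) and 1457.2 (1451.2 to 1463.3) CPM (counts scaled to a library total of 1e6 UMIs). In FMT_young 65 members had a UMI and in FMT_aged 64. Hist1h2ba and Hist1h2aa had none in either library, and a count of 0 allows up to 3 UMIs in a library. H2A genes held 42.62% of the members' UMIs in FMT_young and 37.62% in FMT_aged, H1 genes 25.28% and 24.61%, H4 genes 11.17% and 13.35%, H2B genes 11.44% and 12.32%, and H3 genes 9.49% and 12.11%. The 20 members with the most UMIs held 86.58% and 82.1%. Barcodes with fewer than 100 UMIs, which carry RNA free in the suspension, held the members at 1228.0 and 1286.3 CPM. That free RNA level is above the level inside several of the classes below, and of the kept barcodes 32 occurred in both libraries.

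Cells were clustered without the members, and clusters were named from marker lists, which gave 14 classes. A class is called "-like" because its name rests on these markers, such as Mecom, Hlf and Procr for the hematopoietic stem cell (HSC)-like cluster, Elane and Ms4a3 for granulocyte-monocyte progenitor (GMP)-like clusters, and Cd34 and Flt3 for the multipotent progenitor (MPP)-like cluster. The MPP-like cluster held as many lymphoid progenitor markers among its leading genes as MPP markers, and 1 of the mature B-like clusters as many pro-B or pre-B markers as its own. Neutrophil or monocyte clusters with Kit UMIs in over 20% of cells were called progenitor-like. No cluster took the name of erythroid, megakaryocyte or stromal cells.

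The summed histone level differed widely between classes in each library. It was highest in the neutrophil progenitor-like cluster, at 3795.5 CPM in FMT_young (3722.3 to 3869.7) and 3511.8 in FMT_aged (3435.9 to 3588.8). The plasma cell-like class, antibody-secreting cells that do not divide, stood at 239.4 (232 to 247) and 255.9 (246.2 to 266), which made the FMT_young ratio of highest to lowest class 15.85. These CPM count immunoglobulin UMIs in the total. The ratio of the neutrophil progenitor-like to the plasma cell-like level was much smaller without immunoglobulin, mitochondrial and ribosomal protein genes, and also without doublet removal (values in the last section). In FMT_aged the lowest value was 249.1 in the macrophage-like class, 32 cells, against 108 in FMT_young at 393.2, and the ratio was 14.1. In FMT_young conventional dendritic-like cells followed, and in FMT_aged basophil, eosinophil or mast-like cells. Conventional dendritic-like cells had 2845.2 and 1555.5 CPM, MPP-like cells 2254.4 and 1846.9, and monocyte-like cells 2147.5 and 2025.1. The basophil, eosinophil or mast-like class stood at 1794.6 and 2167.5. GMP-like cells were at 1682.1 and 1360.6 and monocyte progenitor-like cells at 1573.5 and 1418.5. HSC-like cells had 806.4 and 685.8, mature B-like cells 709.9 and 845.4, neutrophil-like cells 552.6 and 560.9, plasmacytoid dendritic-like cells 424.7 and 447.8, and T, NK or innate lymphoid-like cells 399.7 and 321.6. In FMT_young the intervals of the plasmacytoid, lymphoid and macrophage-like classes overlap, so their order is not resolved.

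**Figure D1:**
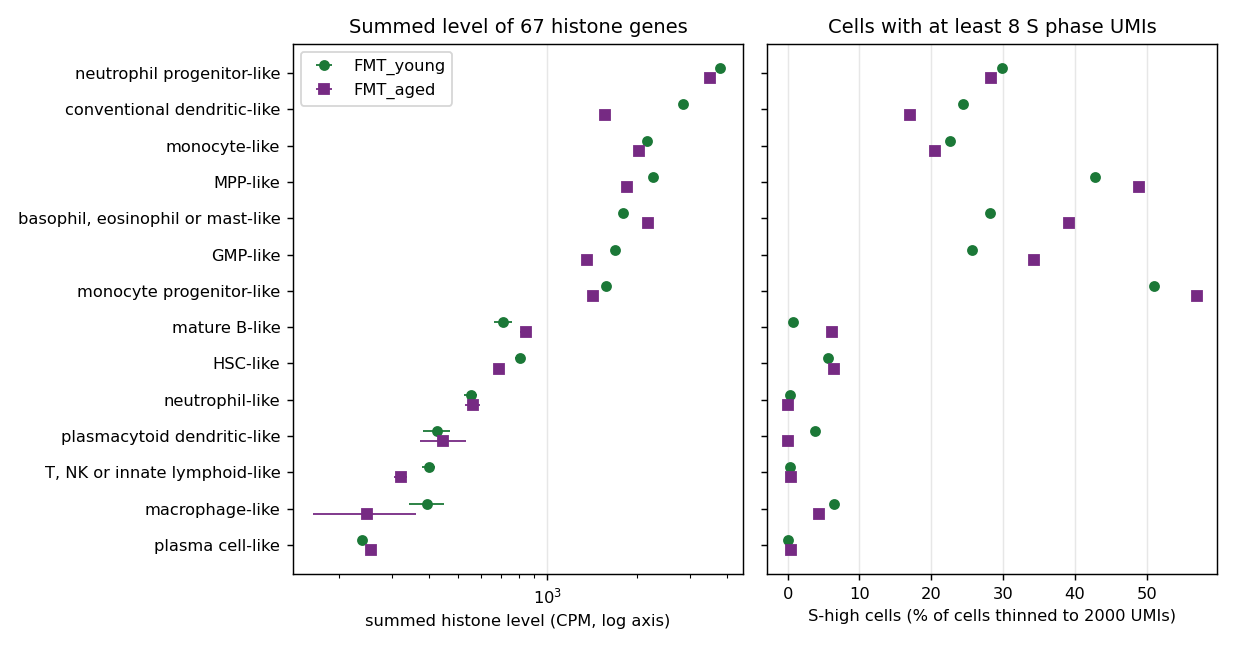
Left, summed level of the 67 histone genes in each class (CPM of all UMIs of the class, log axis; bars are 95% Poisson intervals, counting error only). Right, percent of cells with at least 8 UMIs of the S phase list after thinning to 2000 UMIs; classes at the top, from neutrophil progenitor-like to monocyte progenitor-like, have 1360.6 CPM or more and at least 17.1% S-high cells, and the plasma cell-like class has 0% and 0.447%.

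S phase was read in the same cells from 44 other genes of DNA replication (such as Mcm2 to Mcm7, Pcna and Rrm2), none of them a histone gene, after thinning each cell to 2000 UMIs. Cells with at least 8 UMIs of the list are called S-high and cells with at most 2 S-low. The share of S-high cells was 51.01% in FMT_young and 56.98% in FMT_aged for monocyte progenitor-like cells, 42.73% and 48.95% for MPP-like cells, 29.82% and 28.31% for neutrophil progenitor-like cells, and 5.664% and 6.437% for HSC-like cells. Neutrophil-like and plasma cell-like cells were at 0.447% or less in both libraries. Across the 14 classes, which share their libraries and whose depths differ, the summed level and the S-high share had a Pearson r of 0.717 in FMT_young and 0.654 in FMT_aged, with Spearman rho of 0.771 and 0.761. The order was not the same: neutrophil progenitor-like cells had the highest histone level but fewer S-high cells than monocyte progenitor-like or MPP-like cells. The monocyte progenitor-like values leave out an unnamed cluster, described below, that shares leading genes with that class and had a higher histone level.

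Within the 5 progenitor classes together (HSC-, MPP-, GMP-, monocyte progenitor- and neutrophil progenitor-like), histone mRNA was higher in S-high than in S-low cells. In FMT_young the 1539 S-high cells had 2065.5 CPM and the 996 S-low cells 1266.4, a log2 ratio of 0.71 (0.68 to 0.73). In FMT_aged the 1962 S-high cells had 1735.4 and the 889 S-low cells 1162.4, a log2 ratio of 0.58 (0.55 to 0.60). Of the members with at least 30 UMIs over the cells compared, 21 of 60 in FMT_young and 13 of 61 in FMT_aged were past 2-fold higher in S-high cells, where 3.15% and 3.29% of all genes of the same filter were. Their median log2 ratio was 0.77 and 0.59, against -0.06 and -0.10 over all genes. Of 62 members compared in both libraries, 48 were higher in S-high cells in both and 8 lower in both. S-high cells were deeper, with median depths of 24022 against 10199.5 UMIs in FMT_young and 24061.5 against 8947 in FMT_aged. Among cells of 10000 to 30000 UMIs only, a range set after seeing the data, 24 and 13 members were past 2-fold and the summed log2 ratios were 0.77 and 0.53. The count depends on the list, with 6 and 7 members past 2-fold when the first 22 S phase genes alone set the limits, and 23 in FMT_aged when cells were thinned to 4000 UMIs.

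Hist1h1b, an H1 gene, had 255 CPM in S-high and 78.25 in S-low progenitors of FMT_young (log2 ratio 1.70, 1.61 to 1.79), and 207.3 and 71.5 in FMT_aged (1.54, 1.44 to 1.64). Hist1h1a, another H1 gene, followed with 63.44 against 19.67 CPM (1.69) and 52.53 against 22.23 (1.24). Hist1h2ae, the most abundant member, had 364.2 against 129.5 CPM (1.49) and 278.6 against 122.8 (1.18). A few members of low level had ratios in the same range. Hist1h2bl had 2.238 against 0.556 CPM (2.01) and 2.855 against 0.896 (1.67), Hist1h4b 1.986 against 0.556 (1.84) and 3.244 against 1.059 (1.62), and Hist1h2an 16.22 against 5.143 (1.66) and 16.48 against 6.759 (1.29). Hist1h4m stood at 2.06 and 2.34, but on 3 UMIs in FMT_young and 1 in FMT_aged in S-low cells, with intervals of 0.38 to 4.41 and -0.32 to 7.71. All of these sit on the S-high side in both libraries.

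The 5 members with the lowest ratios were lower in S-high than in S-low progenitors in both libraries beyond counting error. Hist3h2ba, an H2B gene, had 1.454 against 3.822 CPM in FMT_young (log2 ratio -1.39) and 0.606 against 1.873 in FMT_aged (-1.63). Its neighbour on chromosome 11, the H2A gene Hist3h2a, had 9.202 against 18.90 (-1.04) and 8.239 against 16.86 (-1.03). These are the members past 2-fold lower in each library, 2 in each, where 6.26% and 9.09% of all genes were. Hist1h2bc had 68.97 against 133.4 CPM (-0.95) and 42.80 against 72.07 (-0.75), Hist1h1c 61.0 against 100.1 (-0.72) and 39.51 against 64.42 (-0.71), and Hist1h2ac 49.67 against 77.35 (-0.64) and 63.67 against 106.4 (-0.74). So the H1 type contains both Hist1h1b and Hist1h1c, with ratios of opposite sign. The pooled ratio mixes classes, since HSC-like cells were 360 of the 996 S-low but 32 of the 1539 S-high cells in FMT_young, and 427 of 889 but 43 of 1962 in FMT_aged. Summed over the 5, the log2 ratio was -0.81 and -0.76 in the pooled progenitors, -1.05 and -1.02 in MPP-like cells, -0.79 and -0.36 in monocyte progenitor-like cells and -0.40 and -0.11 in GMP-like cells, the last with an interval of -0.23 to 0.01. In neutrophil progenitor-like cells it was -0.56 and 0.08 (-0.22 to 0.39). All these classes belong to the progenitors in which the 5 were picked. Outside them it was -0.57 in both libraries in basophil, eosinophil or mast-like cells and -0.41 and -0.29 in monocyte-like cells. In conventional dendritic-like cells it was above 0, at 0.24 (0.04 to 0.44) and 0.12 (-0.19 to 0.42). Of these 5, 4 have a model that runs past the stem-loop and Hist1h2bc has no stem-loop in its model.

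**Figure D2:**
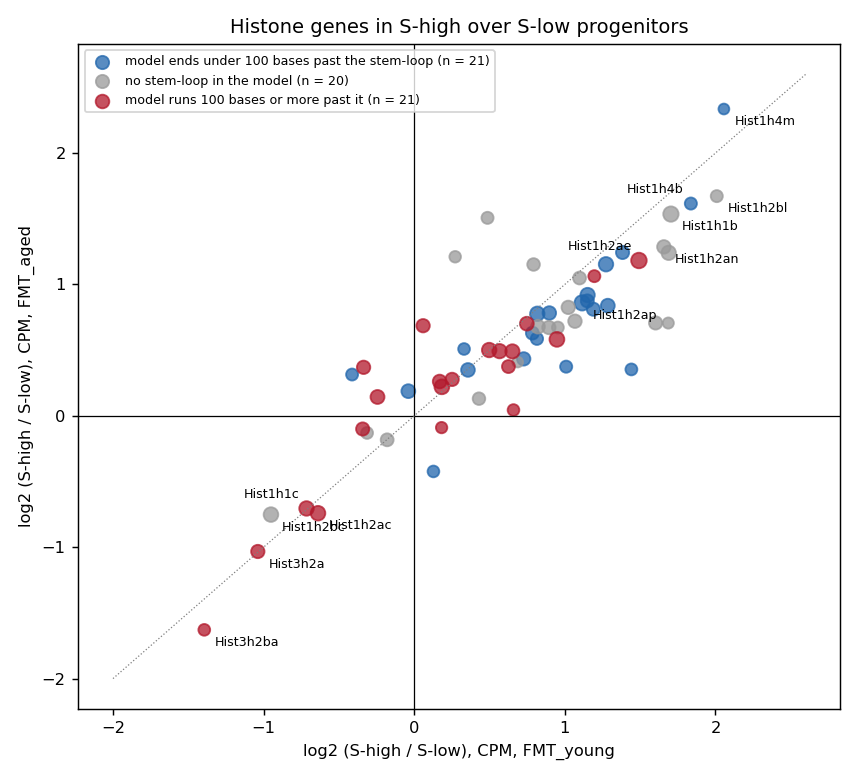
Each point is 1 of 62 members, placed by its log2 ratio of CPM in S-high over S-low progenitors in FMT_young (x) and FMT_aged (y); larger points have more UMIs, colour gives where the annotated transcript ends relative to the stem-loop, and the dotted line marks equal ratios. Most members lie in the upper right, and Hist1h1c, Hist1h2ac, Hist1h2bc, Hist3h2a and Hist3h2ba lie in the lower left.

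Grouped by the end of the annotated transcript, the 21 members that end at the stem-loop had median S-high over S-low log2 ratios of 1.01 in FMT_young and 0.78 in FMT_aged, and the 20 with no stem-loop in the model 0.92 and 0.71. The 21 whose models run past the stem-loop had 0.18 and 0.28. Among the 20 with no stem-loop in the model, some models end at the stop codon, such as that of Hist1h1b. That group therefore reflects the annotation and does not show how the mRNAs end. The groups overlap: the extended members ranged from -1.39 to 1.49 in FMT_young, with Hist1h2ae at the top, and those ending at the stem-loop from -0.41 to 2.06. By type the medians were 0.95 and 0.58 for H1, 0.82 and 0.65 for H2A, 0.58 and 0.40 for H2B, 0.77 and 0.71 for H3, and 0.50 and 0.50 for H4.

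A split by S phase and by 45 genes of G2 and mitosis (with the same limits of 8 and 2 UMIs) separated the members further. Summed histone mRNA was 776.1 CPM in FMT_young and 658.3 in FMT_aged in progenitors low for both lists, 865.9 and 723.5 in those high for S genes alone, 3780.2 and 3671.7 in those high for both, and 2075.9 and 1938.1 in those high for G2 and M genes alone. The cells high for both lists, 269 and 277 of them, thus had the highest summed CPM of the 4 states, and cells high for S genes alone, 528 and 679, held little more than the 599 and 570 cells low for both. Without the 5 members of the lowest ratios named above, the values were 726 and 599.1 CPM in cells high for S genes alone and 383.8 and 319.2 in cells low for both. The 5 were picked as lowest in S-high over S-low in these same progenitors. The wider gap of the other 62 members is thus partly built in and is no independent support. Hist1h1b went from 12.46 and 6.142 CPM in cells low for both to 88.98 and 68.70 in cells high for S genes alone and 483 and 453.9 in cells high for both, and stood at 187.2 and 157.9 in cells high for G2 and M genes alone.

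Hist1h1c and Hist1h2bc had another pattern, with their highest level of the 4 states in progenitors low for both lists. Both are among the members picked for low S-high over S-low ratios in these same cells, so this is partly built in. The split also pools the classes. HSC-like cells, common among S-low cells, held Hist1h1c at 168.7 and 94.69 CPM and Hist1h2bc at 188.8 and 90.38, so cell type and cycle state are mixed here. Hist1h1c had 126.8 and 82.42 CPM there, 38.03 and 25.60 in cells high for S genes alone, and 97.73 and 68.29 in cells high for both. Hist1h2bc had 163.7 and 93.71 CPM in cells low for both lists and 62.47 and 46.07 in cells high for S genes alone. Hist1h2ac was also lowest in cells high for S genes alone, at 31.84 and 45.80 CPM. Its highest level was 137.7 CPM in cells low for both lists in FMT_aged and 83.98 CPM in cells high for G2 and M genes alone in FMT_young.

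**Figure D3:**
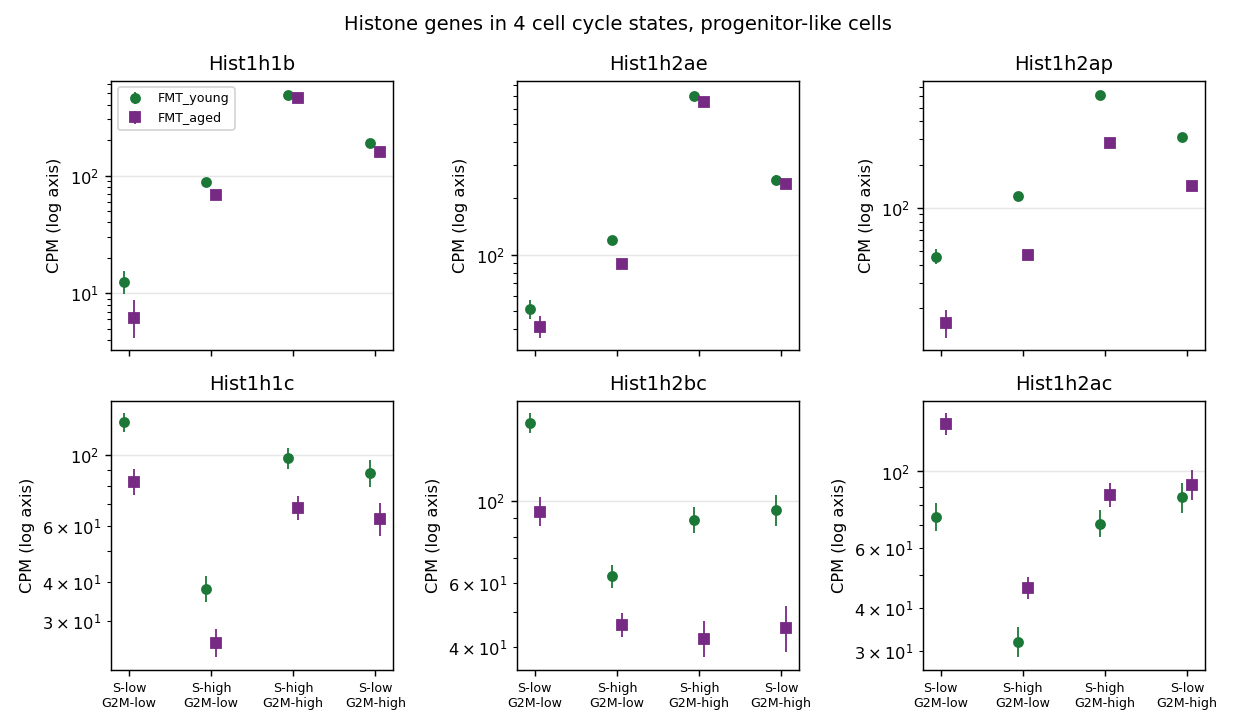
Level of 6 members (CPM, log axis; bars are 95% Poisson intervals) in progenitor-like cells, with the progenitor classes pooled, split by the S list and the G2 and M list. Hist1h1b, Hist1h2ae and Hist1h2ap peak in cells high for both lists, at 483 and 453.9 CPM for Hist1h1b, whereas Hist1h1c and Hist1h2bc are highest in cells low for both.

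The size of this ratio varied between classes. In monocyte progenitor-like cells the summed log2 ratio of S-high over S-low was 1.45 in FMT_young and 1.35 in FMT_aged, in conventional dendritic-like cells 1.88 and 2.50, in monocyte-like cells 1.57 and 1.26, and in GMP-like cells 0.74 and 0.64. It was 0.29 and 0.07 in MPP-like cells. In HSC-like cells S-high cells had less histone mRNA, 486.9 against 940.0 CPM in FMT_young and 489.9 against 750.4 in FMT_aged, on 32 and 43 S-high cells. There the 5 members named above made up 567.7 of 940.0 CPM in S-low cells of FMT_young and 442.1 of 750.4 in FMT_aged, and 175.4 and 137.4 CPM in S-high cells (log2 ratios of -1.69 in both libraries). The other 62 members together had 311.5 CPM in S-high and 372.3 in S-low HSC-like cells of FMT_young and 352.5 and 308.3 in FMT_aged. Their log2 ratios were -0.26 (-0.55 to 0.02) and 0.19 (-0.05 to 0.43), and both intervals include 0. The HSC-like cells are part of the progenitors in which the 5 were picked, so these values describe them and are no independent support.

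The same 5 members took a large share of histone mRNA in several classes with few S-high cells. They were picked in progenitors that include the HSC-like cells, so their share there is no independent support. They held 57.66% of the members' UMIs in FMT_young and 54.81% in FMT_aged in HSC-like cells, 57.74% and 37.41% in plasma cell-like cells, 46.75% and 43.54% in neutrophil-like cells, and 46.69% and 48.82% in plasmacytoid dendritic-like cells. The share was lower in mature B-like cells, at 38.71% and 19.48%, and in T, NK or innate lymphoid-like cells, which also had few S-high cells, at 28.56% and 25.22%. In neutrophil progenitor-like cells they held 8.967% and 8.983%. Their absolute level varied less, between 138.2 and 465.0 CPM over the classes in FMT_young except in T, NK or innate lymphoid-like cells at 114.2 (macrophage-like cells, too few in FMT_aged, are left out). Much of some shares was 1 gene. In neutrophil-like cells Hist1h1c held 557 of the members' 1660 UMIs in FMT_young and 300 of 1192 in FMT_aged. In the plasma cell-like cluster with 895 FMT_young cells it held 1582 of 3207. In the one with 320 FMT_aged cells it held 317 of 978.

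Between the libraries, the summed level over all kept cells was 1548.6 CPM in FMT_young and 1457.2 in FMT_aged, a log2 ratio of 0.09 (0.08 to 0.10). In unscaled CPM this direction rests on 1 gene: without Hist1h2ap the ratio was -0.04 (-0.04 to -0.03). That value is still above the median of all genes (-0.13), so with this median set to 0 it would lie above 0. Of 63 members that reached 30 UMIs when both libraries were added, 17 were higher in FMT_young and 46 lower. Past 1.5-fold, 3 were higher, where 4.79% of all 15016 genes of the same filter were, and 9 lower, where 5.93% were. The median member ratio was -0.28, against -0.13 over all genes, of which 73.97% were lower. Setting that median of all genes to 0 shifts every ratio by 0.13 and turns 5 members to higher, Hist1h3c, Hist1h4i, Hist2h2ac, Hist2h3c1 and Hist4h4. In the progenitor classes alone the summed level was 1770.5 and 1498.0 CPM (log2 ratio 0.24, and 0.11 without Hist1h2ap), 22 of 62 members were higher, 4 were past 1.5-fold higher (4.6% of all genes) and 3 lower (3.29%). The GMP-like class had a log2 ratio of 0.31, larger than in its 3 clusters (0.10, 0.06 and 0.21, or -0.003, -0.05 and 0.05 without Hist1h2ap). Its cells were spread over these clusters differently, with 1148 of 2559 FMT_young but 530 of 1976 FMT_aged cells in a shallow cluster with a median of 2808 UMIs. That cluster held only 4151037 of the 43000755 UMIs of the class in FMT_young and 1775605 of 44676137 in FMT_aged. The cluster with the highest histone level of the 3 (2937.4 and 2544.8 CPM) held 18066638 and 16411200 of these UMIs. S-high shares were lower in FMT_young in the GMP-like class (25.69% against 34.31%), as were depths (medians of 15006 and 24906.5 UMIs), and the part of these in the ratio was not tested. Among S-high progenitors the summed level was 2065.5 and 1735.4 CPM (0.25) and among S-low progenitors 1266.4 and 1162.4 (0.12). Past 1.5-fold in S-high progenitors were 5 members higher and 2 lower of 62 (3.71% and 3.27% of all genes), and in S-low progenitors 5 and 9 of 52 (3.19% and 6.75%).

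**Figure D4:**
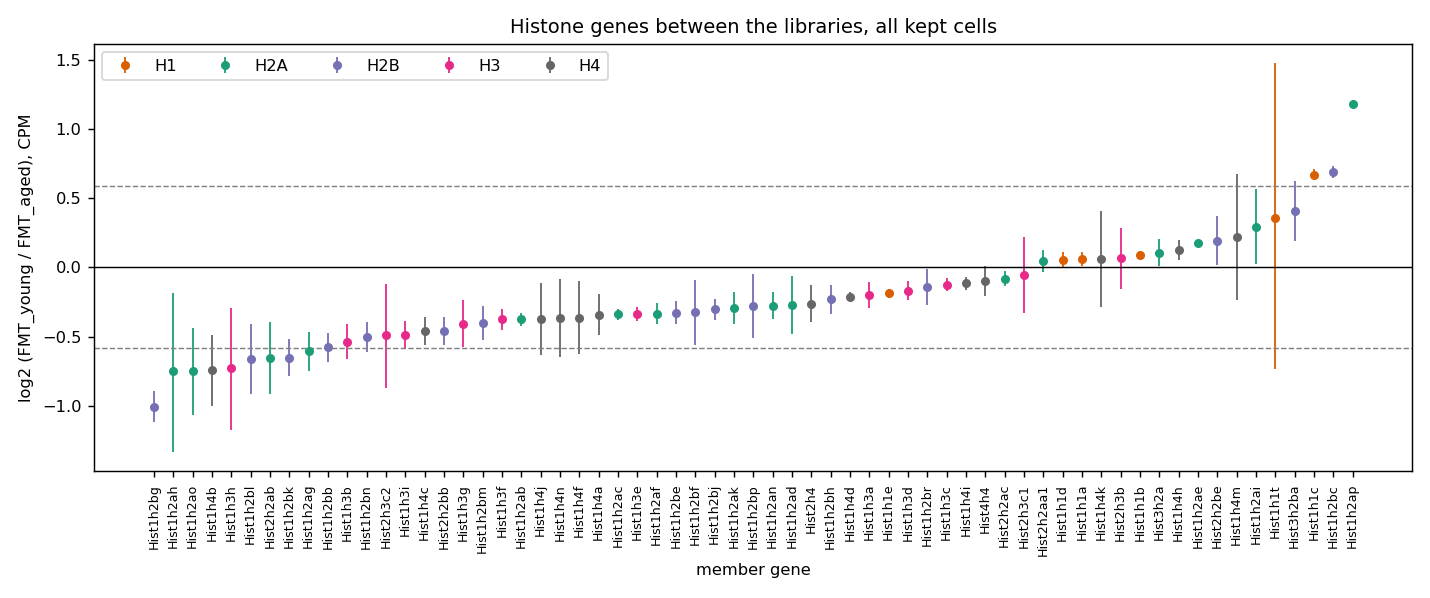
Log2 ratio of CPM, FMT_young over FMT_aged, for the 63 histone genes with at least 30 UMIs over all kept cells, in order and coloured by histone type. Bars are 95% counting intervals and dashed lines mark 1.5-fold; Hist1h2ap, Hist1h2bc and Hist1h1c lie above the upper line and 46 of 63 genes lie below 0.

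Among the linker histones, H1 mRNA summed to 391.4 CPM in FMT_young and 358.6 in FMT_aged (log2 ratio 0.13), with 5 of 6 genes higher. Hist1h1c differed most, with 84.62 and 53.23 CPM (0.67, 0.63 to 0.71), and had a UMI in 43.59% and 37.41% of cells. The free RNA held it at 100.8 and 73.73 CPM. Hist1h1c was higher in FMT_young in the 13 classes in which it was compared, from 0.21 in neutrophil progenitor-like cells to 1.55 in plasmacytoid dendritic-like cells, and beyond counting error in 12 of them. In HSC-like cells it had 168.7 and 94.69 CPM. In the plasma cell-like class, 1582 of its FMT_young UMIs lay in a cluster of 895 and 3 cells, at 117.3 CPM. In the plasma cell-like cluster shared by the libraries (215 and 355 cells) it had 70.72 and 54.7 CPM. In clusters without a name its direction varied. It had 352.8 and 435.3 CPM in one led by Il1b and Acod1, 44.97 and 45.58 in one led by Fcnb, and 114 and 67.14 in one led by Tmem178. Hist1h1b had 157.1 and 147.6 CPM (0.09), Hist1h1a 37.19 and 35.65 (0.06), Hist1h1d 33.85 and 32.61 (0.05, an interval that includes 0), and Hist1h1e 78.49 and 89.41 (-0.19). The testis gene Hist1h1t had 18 and 14 UMIs.

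Among H2A genes, Hist1h2ap stood apart, with 34302 UMIs in FMT_young and 15027 in FMT_aged, or 221.5 and 97.56 CPM (log2 ratio 1.18, 1.16 to 1.21). It was higher in FMT_young beyond counting error in 10 of 12 classes, with 280.7 and 106.0 CPM in GMP-like, 338.2 and 135.5 in MPP-like, 375.9 and 92.51 in conventional dendritic-like and 23.96 and 11.27 in HSC-like cells. In plasma cell-like cells it had 5.569 and 6.089 CPM and in mature B-like cells 31.59 and 33.80, with no difference beyond counting error. The mature B-like value pools clusters of opposite direction. It had 31.82 and 8.722 CPM in one (23 and 16 UMIs) and 31.29 and 98.6 in the other (17 and 70 UMIs). In S-high progenitors it had 330.9 and 127.5 CPM and in S-low progenitors 152.7 and 70.28. The free RNA held it at 189.8 and 71.52 CPM, a log2 ratio of 1.41. With the free RNA profile subtracted the ratio in cells was 1.20. Its near copy Hist1h2ao had 137 and 229 UMIs (-0.75).

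The other H2A genes summed to 438.6 and 450.6 CPM (-0.04), with 4 of 15 higher. Hist1h2ae had 233.9 and 206.9 CPM (0.18), Hist1h2ac 54.92 and 69.44 (-0.34), Hist1h2ab 38.96 and 50.51 (-0.37), Hist2h2ac 37.26 and 39.40 (-0.08) and Hist1h2af 16.32 and 20.57 (-0.33). Hist1h2ac was lower in FMT_young beyond counting error in 9 of 13 classes. Among them were HSC-like cells with 77.34 and 160.7 CPM (-1.05, -1.25 to -0.87) and neutrophil-like cells with 29.96 and 67.29. It was higher in conventional dendritic-like cells, at 73.42 and 44.62. The free RNA held it at 58.16 and 73.08 CPM, a log2 ratio of -0.33.

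H2B genes summed to 177.2 and 179.5 CPM (-0.02, an interval that includes 0), with 3 of 16 higher and 13 lower. Hist1h2bc, the most abundant, had 77.88 and 48.31 CPM (0.69, 0.65 to 0.73). It was higher in FMT_young in all 12 classes compared, and beyond counting error in 9 of them. It had 188.8 and 90.38 CPM in HSC-like and 117.2 and 52.28 in MPP-like cells. Hist1h2bg had 6.457 and 12.96 CPM (-1.005, -1.12 to -0.89), the lowest ratio of any member. It was lower in FMT_young in all 8 classes compared, and beyond counting error in 5 of them. Hist1h2bj had 17.07 and 21.05 CPM (-0.30), Hist1h2bk 4.843 and 7.615 (-0.65) and Hist1h2bb 7.948 and 11.85 (-0.58). The free RNA held Hist1h2bc at 85.71 and 58.64 CPM (0.55) and Hist1h2bg at 11.46 and 22.24 (-0.96).

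H3 genes summed to 147.0 and 176.5 CPM (-0.26), with 11 of 12 lower in FMT_young. Hist1h3c had 42.28 and 46.09 CPM, Hist1h3e 34.20 and 43.13, Hist1h3d 20.47 and 23.00 and Hist1h3f 15.85 and 20.56. H4 genes summed to 172.9 and 194.5 CPM (-0.17), with 10 of 13 lower. Hist1h4d had 69.61 and 80.72 CPM (-0.21), Hist1h4i 47.76 and 51.70 (-0.11) and Hist1h4h 20.58 and 18.85 (0.13). In the progenitor classes the H3 sum was 167.7 and 179.0 CPM (-0.09) and the H4 sum 193.8 and 196.9 (-0.02, an interval that includes 0).

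**Figure D5:**
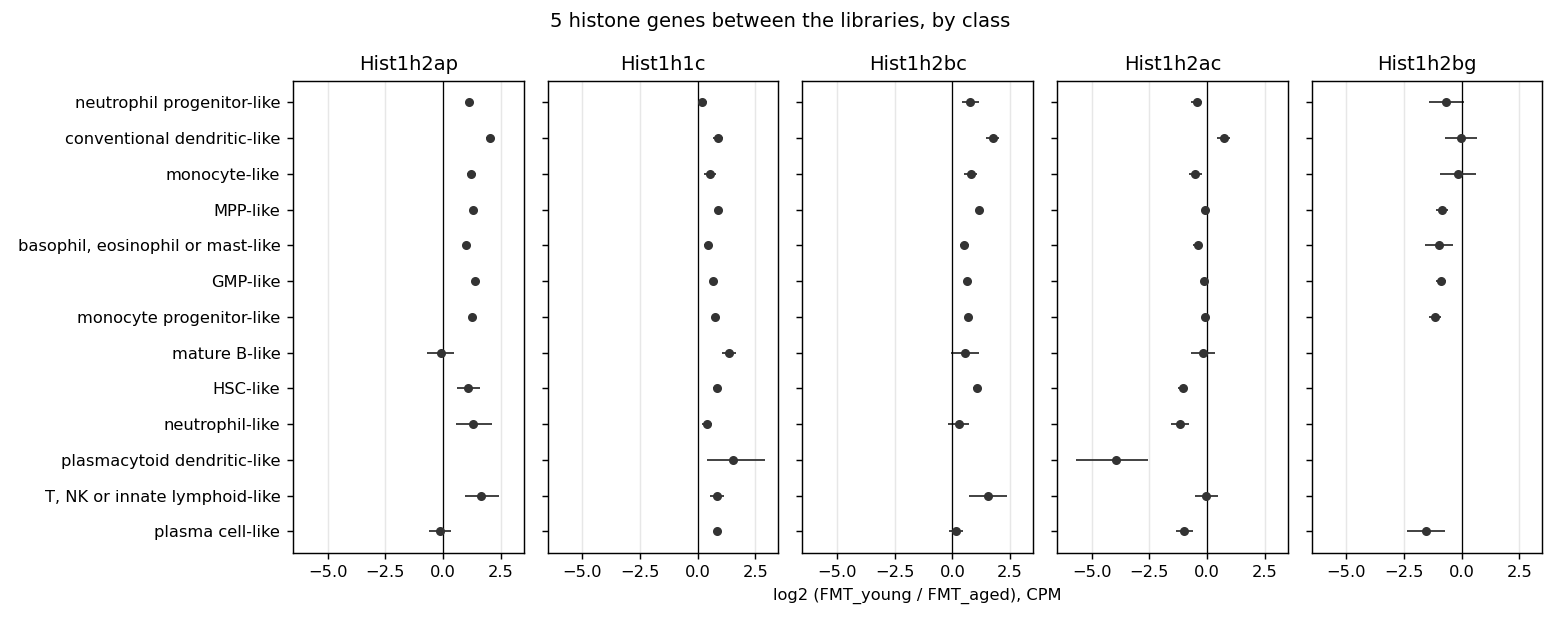
Log2 ratio of CPM, FMT_young over FMT_aged, for 5 members in each class where both libraries together had at least 30 UMIs (bars are 95% counting intervals). Hist1h1c lies above 0 in every class shown, Hist1h2ap in all but the mature B-like and plasma cell-like classes, and Hist1h2bg below or at 0.

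In a few classes most members differed in one direction. In conventional dendritic-like cells, 315 in FMT_young and 346 in FMT_aged, 43 of 46 members were higher in FMT_young, 20 past 1.5-fold (8.06% of all genes) and none past it in the other direction (4.56%), with a median of 0.51 against 0.05 over all genes. The summed level there was 2845.2 and 1555.5 CPM (0.87, 0.83 to 0.92), beside S-high shares of 24.44% (19.76 to 29.6) and 17.1% (13.28 to 21.5), whose intervals overlap. Hist1h2ae had 592.0 and 283.1 CPM and Hist1h2bc 118.8 and 35.54 in these cells. Within S-low conventional dendritic-like cells the summed level was 1153.8 and 492.0 CPM, and within S-high ones 4257.8 and 2777.9, so the level differed on both sides of the S phase split.

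In basophil, eosinophil or mast-like cells 45 of 50 members were lower in FMT_young, 29 past 1.5-fold (7.68% of all genes) and 2 higher (5.18%), with a median of -0.71 against -0.14. The summed level was 1794.6 and 2167.5 CPM (-0.27), and S-high shares were 28.23% and 39.1%. Hist1h2bk had 2.723 and 11.83 CPM, Hist1h3b 4.357 and 16.10 and Hist1h2bn 9.259 and 24.63, while Hist1h2ap (213.0 and 105.5), Hist1h2bc (123.6 and 86.30) and Hist1h1c (147.9 and 107.2) kept the direction they had over all kept cells. The clusters of this class differed. A cluster led by the eosinophil genes Prg2 and Epx, with 43 and 45 cells, had 2183.5 and 1223.0 CPM (0.84), whereas the basophil-led cluster with 193 and 305 cells had 1976.2 and 2423.9. A shallow cluster, with a median of 3033 UMIs, held 282 of the 523 FMT_young but 131 of the 535 FMT_aged cells of the class, at 1200.5 and 1434.2 CPM (-0.26). Another held 5 and 54 cells, so the class is made up of different clusters in the 2 libraries.

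In HSC-like cells, 570 and 671 in number, 14 of 25 members were higher in FMT_young, 6 past 1.5-fold (3.52% of all genes), and 2 were past it in the other direction (6.94%). The sum was 806.4 and 685.8 CPM (0.23), a value that fell to 0.01 with a mitochondrial limit of 5%, 0.08 with one of 20% and 0.06 with the cell cycle genes left out of clustering. In MPP-like cells 4 and 10 of 60 members were past 1.5-fold higher and lower (3.47% and 3.6% of all genes), in GMP-like cells 5 and 3 of 62 (4.97% and 2.37%), and in monocyte progenitor-like cells 4 and 8 of 60 (4.19% and 2.3%). In monocyte-like cells it was 3 and 8 of 43 (4.85% and 4.41%), in neutrophil progenitor-like cells 3 and 7 of 47 (5.46% and 4.86%), and in neutrophil-like cells 2 and 4 of 16 (6.33% and 5.47%). The T, NK or innate lymphoid-like class had 6 and 0 of 24 (3.51% and 6.58%), and the plasmacytoid dendritic-like class, with 50 cells in FMT_aged, 1 and 1 of 4 (10.6% and 11%).

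Plasma cell-like cells had 2 and 15 of 30 members past 1.5-fold higher and lower (6.31% and 12.5% of all genes). Of their 3 clusters, one held 895 and 3 cells and another 4 and 320, and in these a difference of library and of cluster cannot be told apart. The third was shared, with 215 and 355 cells, and had 243.0 and 300.1 CPM (-0.30, -0.43 to -0.18). In mature B-like cells, with 4 and 8 of 27 members (7.64% and 14.7%), the sum of 709.9 and 845.4 CPM (-0.25) changed sign in 6 of 13 alternatives, to at most 0.76. One cluster of the class had 684.7 and 375.6 CPM (0.87), and the other 743.5 and 2059.4 (-1.47) with S-high shares of 1.667% and 16.79%.

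Clusters without a name also held many member UMIs. In a cluster led by Fcnb, Vcam1 and Clec4b2, with 567 FMT_young and 328 FMT_aged cells, the members stood at 871.0 and 1025.7 CPM (log2 ratio -0.24). There 43 of 49 members were lower in FMT_young, 11 past 1.5-fold (3.01% of all genes), and 3 were past it higher (3.76%), beside S-high shares of 35.80% and 37.50%. A cluster of 258 and 256 cells, led by Tmem178, with Kpna2, Prc1 and Ccnf among its leading genes, stood at 3395.8 and 3362.0 CPM (0.01). In it 42 of 58 members were lower in FMT_young, 14 past 1.5-fold (2.92% of all genes), and 4 were past it higher (3.68%). Tmem178, Tctex1d1 and Nrg1 are leading genes of both this cluster and the monocyte progenitor-like one. The main clustering kept the cell cycle genes, so cycling cells of that class may have been set apart here, which was not tested.

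Neighbouring genes did not always go together. Starts of 13 pairs of members lie head to head within 1000 bases, 12 of them an H2A and an H2B gene, and 11 pairs had enough UMIs. In 6 pairs both members had the same sign between the libraries and in 5 the signs were opposite beyond counting error. Hist1h2ac and Hist1h2bc, 250 bases apart, stood at -0.34 and 0.69, while both were lower in S-high progenitors. Hist1h2ae and Hist1h2bg, 175 bases apart, stood at 0.18 and -1.005. The other pairs with opposite signs were Hist1h2ap and Hist1h2br (1.18 and -0.14), Hist1h2bl and Hist1h2ai (-0.66 and 0.29), and Hist2h2ac and Hist2h2be (-0.08 and 0.19). With the median of all genes set to 0, a shift of 0.13, Hist2h2ac turns to higher and its pair no longer has opposite signs. The interval of Hist1h2br ends at -0.01, so with that shift it includes 0.

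Genes that work with the members were compared from lists of their own. In the progenitor classes none of 11 replication-independent and variant histones, 16 genes of histone mRNA transcription and 3' end processing and 18 chaperones was past 1.5-fold. Of the first list 6 were higher in FMT_young and 5 lower, with a median of 0.00, of the processing genes 2 and 14 (-0.12), and of the chaperones 5 and 13 (-0.08), against -0.08 over all genes. Slbp, whose protein binds the stem-loop, had 150.8 and 135.2 CPM (0.16) and Nasp, a chaperone of H1 and of H3 with H4, 212.7 and 200.7 (0.08). The variant H3 gene H3f3b had 1952.0 and 1399.6 CPM (0.48), the variant H1 gene H1f0 24.64 and 18.34 (0.43), and Atrx 248.4 and 209.8 (0.24). Ipo4, a nuclear import receptor, had 13.70 and 17.20 (-0.33), the acetyltransferase gene Hat1 78.07 and 91.87 (-0.23), and H2afy, for macroH2A, 1462.7 and 1651.8 (-0.18).

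In S-high over S-low progenitors, Slbp stood at log2 ratios of 0.85 in FMT_young and 0.90 in FMT_aged, Nasp at 1.05 and 1.10, Hat1 at 1.28 and 1.30 and Chaf1a, a subunit of the replication-coupled assembly factor, at 1.64 and 1.53. Chaf1b is in the list that set the S phase limits and is not read here. H1f0 was lower in S-high cells (-0.85 and -1.06), as was the centromeric histone gene Cenpa (-1.97 and -2.15). Past 2-fold higher, where 3.15% and 3.29% of all genes were, stood 1 of the variant histones in each library (H2afy2) and none of the processing genes. Of the chaperones other than Chaf1b, Nasp, Hat1 and Chaf1a were past it in both libraries and Asf1b in FMT_young. Past 2-fold lower, where 6.26% and 9.09% of all genes were, stood Cenpa in both libraries and H1f0 in FMT_aged, and none of the processing genes or chaperones.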

How the data were processed

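The authors deposited raw UMI counts per gene and barcode. The submitters' processing notes name Cell Ranger and the build mm10, and the file headers give Cell Ranger 3.1.0. Members are rows by symbol, and both the members and the gene lists were chosen with earlier results of these data known. Barcodes with at least 1000 UMIs, 500 genes and at most 10% mitochondrial UMIs were called cells (11932 in FMT_young, 11351 in FMT_aged). The 9.546% and 9.083% with the highest doublet scores, computed by a reimplementation of the Scrublet score, were removed, leaving library totals of 154873023 and 154035069 UMIs. The main clustering left out the members and the variant histones (2000 variable genes, 40 components, 20 neighbours, Leiden resolution 1.0; python-igraph 0.11.9, leidenalg 0.10.2). Clusters were named from marker lists, needing 3 markers in 10% of cells and 1.5-fold higher than elsewhere. Cell cycle, member, immunoglobulin and mitochondrial genes were set aside when leading genes were read, a choice made after seeing the clusters.

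UMIs were summed per class as CPM, with exact Poisson intervals, exact conditional binomial intervals for ratios and exact Clopper-Pearson intervals for shares, all at 95% and for counting error only. Genes with at least 30 UMIs were compared. Past 1.5-fold between libraries, or 2-fold for S-high over S-low, is a size and not a test. For S phase, 790 and 575 cells under 2000 UMIs were left out. Ratios and thinning were tested on simulated data. Members are named with values if among the 20 with the most UMIs, the 5 highest or lowest in S-high over S-low, or the 3 per direction and class whose interval bound lies farthest from 0, and a few beyond this rule (Hist1h1t, Hist2h2be and the members of neighbouring pairs, for example) were named after their values were seen. Transcript ends come from GENCODE, promoters from RefSeq (GRCm38.p6). Python 3.11.15, numpy 2.4.6 and scipy 1.17.1 were used.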

Additional observations from a re-analysis of the deposited data

Results flagged for a closer look

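With Hist1h2ap left out, the summed histone level still had opposite directions between the libraries in different classes. The log2 ratio of FMT_young over FMT_aged was 0.7552 in conventional dendritic-like cells, and -0.3826 in basophil, eosinophil or mast-like cells, -0.2587 in mature B-like cells and -0.0953 in plasma cell-like cells. Each class is 1 sample per group, and the difference between classes was not tested. The other alternatives were run on the sum with Hist1h2ap kept. Over all 13, leaving out Hist1h2ap among them, the ratio was above 0 in conventional dendritic-like cells (0.59 to 0.93) and below 0 in basophil, eosinophil or mast-like cells (-0.45 to -0.13), while it changed sign in some of them in mature B-like and plasma cell-like cells.

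The members were also read outside the cells. In barcodes with fewer than 100 UMIs they held 1228.0 CPM in FMT_young (10072 UMIs) and 1286.3 CPM in FMT_aged (9892 UMIs), which is above the level in HSC-like, mature B-like, neutrophil-like and plasma cell-like cells. Without Hist1h2ap the free RNA held 1038.1 and 1214.8 CPM.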

How the results depend on the processing

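No paired analysis was possible because each group is 1 library, and no replicate could be left out. The log2 ratio of the summed level over all kept cells (0.0877) was 0.2178 with median-of-ratios scaling, 0.1335 without immunoglobulin, mitochondrial and ribosomal protein genes, 0.0700 as a mean over cells, 0.1093 with free RNA subtracted, 0.0633 at a 5% mitochondrial limit, 0.0679 without doublet removal and -0.0350 without Hist1h2ap. In the progenitor classes (0.2411) the same settings gave 0.3168, 0.2606, 0.1620, 0.2658, 0.2026, 0.2032 and 0.1100, with 0.2569 without the shallow GMP-like cluster, 0.2200 from 2000 UMIs, 0.1987 at a 20% limit, 0.2018 without cell cycle genes in clustering and 0.2957 at resolution 2.0. Leaving out Hist1h2ap or that cluster was chosen after seeing the data, and at the 5% limit and with the histone genes kept in clustering 4 of the 5 progenitor classes were named. Scaling moved the median member ratio to -0.1482 and the members past 1.5-fold lower from 9 to 5. At 2-fold 1 member was higher and 1 lower.

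The log2 ratio of the neutrophil progenitor-like over the plasma cell-like level (3.99 in FMT_young, 3.78 in FMT_aged) was 2.3763 and 2.1141 without immunoglobulin, mitochondrial and ribosomal protein genes, 1.8828 and 2.0936 without doublet removal, 4.0914 and 3.8478 with free RNA subtracted, and 3.9198 and 3.4768 from 2000 UMIs. It was 3.9050 in FMT_young as a mean over cells, and 3.4699 and 3.6714 in FMT_aged at the 5% and 20% limits. The members past 2-fold in S-high cells (21 and 13) were 6 and 7 with the first 22 S phase genes, 35 and 31 at 1.5-fold, and in FMT_aged 23 with cells thinned to 4000 UMIs and 20 at the 5% limit.

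Sums were recomputed under all alternatives in 6 of the 14 classes, and in 3 of these signs turned. Mature B-like cells (-0.2519) gave 0.0097 as a mean over cells, 0.6879 from 2000 UMIs, 0.1326 and 0.6651 at the 5% and 20% limits, 0.7577 without doublet removal and 0.7462 at resolution 2.0. Plasma cell-like cells gave 0.0282 with scaling and 0.1677 without doublet removal, and neutrophil progenitor-like cells -0.0087 without Hist1h2ap and -0.0431 without doublet removal. Monocyte-like cells, outside those 6, went from 0.0846 to -0.0155 without Hist1h2ap. The cause was not tested. Over 12 alternatives each, Hist1h2ap (1.15 to 1.31 over all kept cells), Hist1h1c (0.60 to 0.80), Hist1h2bc (0.65 to 0.82), Hist1h2ac (-0.47 to -0.21) and Hist1h2bg (-1.08 to -0.87) did not change sign.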
